A study of Homo sapiens with 24 samples.

Results

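PPC1, a human prostate cancer cell line, was sequenced as parental cells and as polyploid giant cancer cells (PGCC), and 9 genes of the complement system are described here in both. The genes were CLU, C3, C1R, C1S, CFB, CFI, CD46, CD55 and CD59, which hold 10 of the 48162 rows of the count table because CFB is listed under 2 identifiers. They were chosen by name with earlier results of the same libraries known, above all their levels in PGCC and parental cells, so those levels are given below as a description and without a test. Parental cells were left untreated and harvested on day 5. PGCC came from cultures that received 8 Gy of radiation on day 2, and on day 5 they were collected as the cells held back by a 20 micron filter. Each population was also taken after exposure to LCL521 at 5 µM for 5 h before harvest, which gave 4 conditions of 6 libraries. LCL521 inhibits acid ceramidase (ASAH1), the lysosomal enzyme that splits ceramide. Libraries of each condition carry the numbers 1 to 6. The paper names 6 sets of RNA isolations, and libraries of the same number are treated here as 1 experiment. Parental cells were neither irradiated nor filtered, so radiation, size selection and time after stress cannot be told apart in any comparison of PGCC with parental cells.

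Complement is a cascade of plasma proteins that tags surfaces for clearance and can end in a membrane pore. C1R and C1S are the proteases of the first component, C3 is the protein on which all routes of activation meet, and CFB supplies the protease of the alternative route. CFI cuts activated C3 with the help of membrane cofactors such as CD46, CD55 takes apart the enzymes that cut C3, CD59 blocks the pore, and clusterin (CLU) is a secreted chaperone that also binds forming pores. The liver makes most of the plasma proteins of the cascade, and nearly all nucleated cells carry membrane regulators.

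Total counts lay between 14835246 and 19906601 per library, so that 3 counts, taken as the limit that a count of 0 allows, were worth 0.150 to 0.207 CPM. CPM are counts divided by the TMM-scaled size of the library, on the usual scale of the unit. The epithelial markers KRT8, KRT18, EPCAM and CDH1 together had between 4205 and 8266 counts per library, most of them of KRT8 and KRT18. EPCAM had 0 to 17 counts and CDH1 18 to 113. Mean KRT8 was 70.2 CPM in parental cells and 178 in PGCC, KRT18 233 and 169, and CDH1 3.07 and 1.99. The prostate luminal marker KLK3 had 0 counts in all 24 libraries. The parental libraries of experiments 4 and 5 stood apart in CD55 and CD59, as given below beside the values of the other experiments. Genes with at least 1 count numbered 18770 to 20205 in the 12 parental libraries and 21034 to 22709 in the 12 PGCC libraries.

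The promoter sequences of C1R, CD55 and CD46 are shown because C1R and CD55 had different levels in PGCC and parental cells and CD46 did not. They were taken from RefSeq on GRCh38.p14 and hold the 250 bases before a listed start of transcription, 5′ to 3′ on the strand of the gene. Windows of 6 of the 9 members were searched, and those of CLU, C3 and C1S were not. Capitals mark matches, on either strand, to TTGCNNAA (C/EBP-like), TTCNNNGAA (STAT-like) and GGGCGG (GC box).
C1R, first start, chr12:7092446-7092695, minus strand: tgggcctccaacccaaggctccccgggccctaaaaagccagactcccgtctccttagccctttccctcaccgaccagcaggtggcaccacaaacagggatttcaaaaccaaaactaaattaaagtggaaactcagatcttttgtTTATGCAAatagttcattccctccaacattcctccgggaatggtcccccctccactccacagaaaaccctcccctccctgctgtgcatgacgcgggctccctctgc
C1R, second start, chr12:7091894-7092143, minus strand: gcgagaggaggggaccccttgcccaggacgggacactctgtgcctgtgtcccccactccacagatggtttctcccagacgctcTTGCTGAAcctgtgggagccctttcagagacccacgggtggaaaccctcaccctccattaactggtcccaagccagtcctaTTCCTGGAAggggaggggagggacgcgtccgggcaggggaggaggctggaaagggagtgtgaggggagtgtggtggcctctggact
CD55, chr1:207321428-207321677, plus strand: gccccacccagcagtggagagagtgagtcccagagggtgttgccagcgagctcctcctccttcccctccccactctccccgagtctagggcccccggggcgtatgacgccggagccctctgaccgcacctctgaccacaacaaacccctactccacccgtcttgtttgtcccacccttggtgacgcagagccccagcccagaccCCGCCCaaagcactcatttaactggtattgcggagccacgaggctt
CD46, second start, chr1:207751804-207752053, plus strand: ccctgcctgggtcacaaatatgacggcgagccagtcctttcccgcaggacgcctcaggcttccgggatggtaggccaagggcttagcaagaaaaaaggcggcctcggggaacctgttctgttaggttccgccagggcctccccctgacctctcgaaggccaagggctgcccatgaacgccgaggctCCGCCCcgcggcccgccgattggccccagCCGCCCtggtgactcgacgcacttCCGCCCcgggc
The first C1R window held 1 C/EBP-like match, and the second held 1 C/EBP-like and 1 STAT-like match, whose letters read the same way on both strands. CD55 held 1 GC box and the window of CD46 shown held 3. The window of the first CD46 start, chr1:207751788-207752037, lies over most of the same bases, held 2 and is not shown. The NF-kappaB-like motif, the interferon-stimulated response element-like motif and TGANTCA (AP-1-like) were searched as well and were not in these 4 windows. Windows of CD59, whose levels overlapped between PGCC and parental cells like those of CD46, held C/EBP-like, STAT-like, AP-1-like and GC box matches. The window of CFB held interferon-stimulated response element-like and STAT-like matches, and that of CFI held none. These windows are not shown. Of 35116 RefSeq promoter windows of the same length, 9.05% held the C/EBP-like letters, 6.57% the STAT-like letters, 42.6% the GC box, 1.73% the NF-kappaB-like motif, 3.02% the interferon-stimulated response element-like motif and 6.57% the AP-1-like letters. The matches are a description of the letters and not of factor binding.

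CLU, the most changed member, had 27.2 CPM in the lowest, 31.3 in the median and 40.8 in the highest library of parental cells. In PGCC the same values were 204, 221 and 262 CPM. In bulk RNA more RNA per cell and more cells with the RNA cannot be told apart, here and below. The levels of the populations did not overlap, and the PGCC library was higher than the parental library of the same experiment in 6 of 6 experiments. The log2 fold change was 2.81 ± 0.12 (SE, n = 6 libraries per condition), with a 95% interval of the fold of 5.90 to 8.31. In the presence of LCL521 it was 2.88 ± 0.09, and the 6 PGCC libraries with LCL521 lay between 220 and 231 CPM. The gene (ENSG00000120885) is listed on chromosome 8 from 27454434 to 27472548 of hg19, the build of the count table and of all positions given for whole genes.

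C3 (ENSG00000125730, chromosome 19 from 6677715 to 6730573) was counted 5 to 22 times per library in parental cells, with a median of 15.5. In PGCC it was counted 48 to 147 times, with a median of 92.5. No PGCC library fell to the level of a parental library, and the log2 fold change was 2.68 ± 0.37 without and 2.61 ± 0.35 with LCL521 (SE, n = 6). Within PGCC the lowest level, 2.42 CPM, was that of experiment 5, which also had the lowest parental level, 0.291 CPM. C3 lies over GPR108 on the same strand, a gene with 18116 counts over the 24 libraries against 1263 of C3, and the counting may have set aside reads that fall on both. GPR108 had 45.0 ± 4.07 CPM in parental cells and 43.3 ± 4.01 in PGCC (SD, n = 6).

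The 2 proteases of the first component were low in both populations. C1S (ENSG00000182326, chromosome 12 from 7096351 to 7178336) had 2.29, 4.24 and 4.81 CPM in the lowest, median and highest parental library and 4.42, 6.50 and 8.23 in PGCC. The ranges overlapped, although every PGCC library was above its own parental library, and the log2 fold change was 0.77 ± 0.24 without and 0.76 ± 0.18 with LCL521 (SE, n = 6). C1S is listed over LPCAT3 on the opposite strand, which had 14555 counts over the 24 libraries against 2102 of C1S. The strand setting of the counting is not given in the sources used here. LPCAT3 went from 38.3 ± 3.27 CPM in parental cells to 32.0 ± 1.48 in PGCC (SD, n = 6), the direction opposite to that of C1S.

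C1R (ENSG00000159403, chromosome 12 from 7187513 to 7245203) was counted 1 to 8 times per library in parental cells and 8 to 17 times in PGCC. With LCL521 it was counted 3 to 9 times in parental cells and 15 to 24 times in PGCC. Levels in CPM did not overlap between PGCC and parental cells in either setting, from 0.0580 to 0.466 against 0.484 to 0.977 without LCL521 and from 0.172 to 0.551 against 0.818 to 1.40 with it. In the comparison without LCL521 the gene was not tested, because too few libraries reached the minimum of 10 counts that the test asks for. With LCL521 the gene passed that minimum through its level in PGCC, and the log2 fold change was 1.70 ± 0.29 (SE, n = 6). In experiments 1, 2, 3 and 6 the difference in log2 CPM without LCL521 was 1.05 to 1.79, with a mean of 1.40. In experiments 4 and 5 it was 0.66 and 0.20. With LCL521 the difference was 1.16 to 1.96 in experiments 1, 2, 3 and 6 and 1.10 and 1.11 in experiments 4 and 5. Parental levels lay near the counting limit, which leaves the size of the fold imprecise.

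CFB and CFI were at or near the counting limit in every library. CFI (ENSG00000205403, chromosome 4 from 110661852 to 110723335) had 0 counts in all 12 parental libraries, and in PGCC it had 0 to 5 counts without and 0 to 4 with LCL521. CFB (ENSG00000243649, chromosome 6 from 31895475 to 31919861) had 2, 6, 11 and 12 counts summed over the 6 libraries of parental cells, parental cells with LCL521, PGCC and PGCC with LCL521. The other row of CFB (ENSG00000244255) had 0 counts in all 24 libraries, and both rows overlap each other and C2, so that reads on them may have been set aside as ambiguous. No fold is given for these 2 genes, which fell short of the count minimum of the test. Both populations averaged fewer than 3 counts of each per library.

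**Figure D1:**
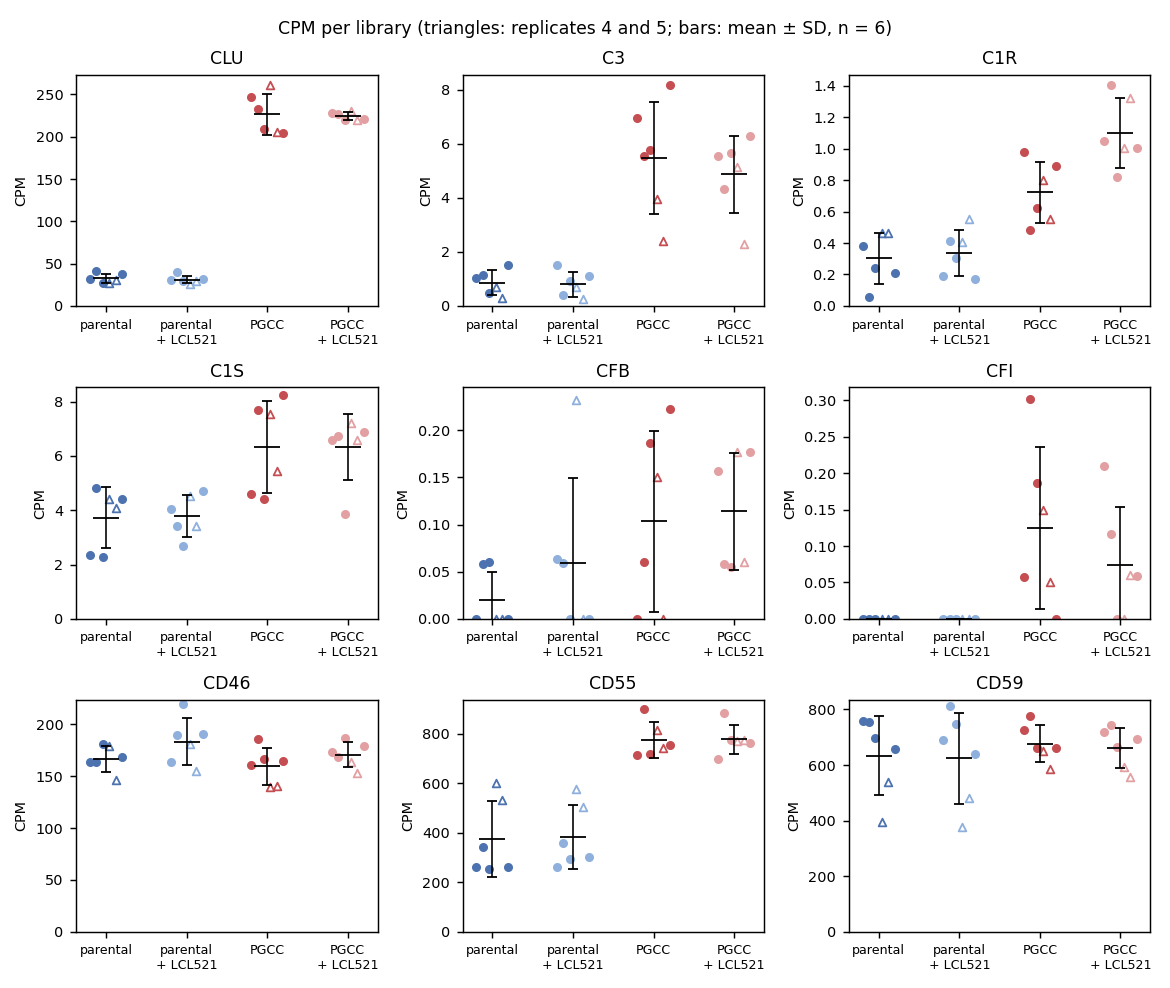
CPM of each member in each of the 24 libraries, with a vertical axis of its own per gene that starts at 0. Points are libraries, triangles are those of experiments 4 and 5, and bars are the mean and SD of 6 libraries. The PGCC libraries of CLU, C3, C1R and CD55 lie above all parental libraries, while those of CD46 and CD59 overlap with them. How many of all genes lie apart in this way was not counted.

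The 3 membrane regulators were the most abundant members per length in parental cells. CD59 (ENSG00000085063, chromosome 11 from 33719807 to 33757991) stood at 170 ± 38.3 CPM per kb of transcript, CD55 (ENSG00000196352, chromosome 1 from 207494853 to 207534311) at 136 ± 55.8 and CD46 (ENSG00000117335, chromosome 1 from 207925402 to 207968858) at 21.4 ± 1.60 (SD, n = 6). The ranges of CD59 and CD55 overlapped. CLU followed with 10.6 ± 1.78, C1S with 1.21 ± 0.36, C3 with 0.164 ± 0.0871 and C1R with 0.143 ± 0.0768 CPM per kb, of which the last 2 overlapped. In PGCC the order was CD55, CD59, CLU, CD46, C1S, C3 and C1R. CD55 then stood at 281 ± 26.1, CD59 at 182 ± 17.8, CLU at 73.6 ± 7.90, CD46 at 20.4 ± 2.23, C1S at 2.06 ± 0.55, C3 at 1.04 ± 0.39 and C1R at 0.342 ± 0.0933 CPM per kb (SD, n = 6). Of neighbours in this order, C1S and C3 overlapped, as did C3 and C1R. CLU had thus moved from below CD46 to above it, and CD55 from among the levels of CD59 to above them.

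CD55 had 253, 302 and 602 CPM in the lowest, median and highest parental library and 716, 747 and 902 CPM in PGCC. The populations did not overlap, and the log2 fold change was 1.05 ± 0.21 without and 1.05 ± 0.18 with LCL521 (SE, n = 6). The parental libraries of experiments 4 and 5 had 602 and 534 CPM, while the other 4 had 253 to 342. In experiments 1, 2, 3 and 6 the mean difference between PGCC and parental cells of the same experiment was 1.47 on the log2 scale, with a range of 1.40 to 1.52. In experiments 4 and 5 the differences were 0.44 and 0.47. In PGCC the libraries of experiments 4 and 5, at 816 and 742 CPM, lay among the others.

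CD59 showed the mirror pattern in parental cells of experiment 4 and, to a lesser extent, 5. Those libraries had 393 and 538 CPM, below the 657 to 758 CPM of the other 4. Its range in PGCC, 585 to 776 CPM, lay over the parental one, and the log2 fold change was 0.11 ± 0.14 (SE, n = 6), with a value of -0.003 in experiments 1, 2, 3 and 6 alone. CD46 ranged from 147 to 181 CPM in parental cells and from 139 to 186 in PGCC, with a log2 fold change of -0.06 ± 0.09 that turned to 0.03 with unscaled library totals and to 0.02 in experiments 1, 2, 3 and 6. With LCL521 the changes were 0.11 ± 0.15 for CD59 and -0.08 ± 0.09 for CD46. The 95% intervals without LCL521 held folds of 0.877 to 1.32 for CD59 and 0.845 to 1.09 for CD46.

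The balance of CD55 and CD59, given as their ratio per length, was 0.463 to 0.610 in the parental libraries of experiments 1, 2, 3 and 6 and 2.06 and 1.34 in experiments 4 and 5. In PGCC it was 1.33 to 1.71 over all 6 libraries. CD55 made up 40.8 ± 14.2% of the summed CPM per kb of the 3 regulators in parental cells and 58.1 ± 2.29% in PGCC, while the sum itself went from 328 ± 26.5 to 483 ± 40.2 CPM per kb (SD, n = 6). The parental libraries of experiments 4 and 5 thus had a ratio at or above the lowest ratio of PGCC without its higher sum, which was 347 and 357 CPM per kb in those 2 libraries. Whether a culture state of the parental cells moved with these experiments was not tested.

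**Figure D2:**
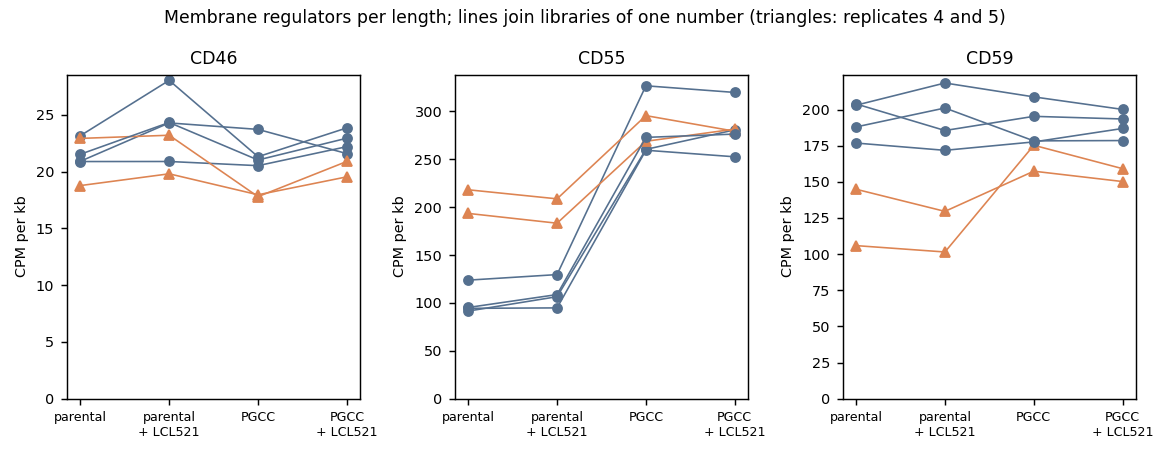
CPM per kb of CD46, CD55 and CD59 in the 4 conditions, with lines that join the libraries of the same experiment and triangles for experiments 4 and 5. Parental CD55 is high and parental CD59 low in experiments 4 and 5, and the lines come together in PGCC.

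Between PGCC and parental cells 47.4% of all 13812 genes tested passed an adjusted p under 0.05 in edgeR's quasi-likelihood test, 23.1% as higher and 24.3% as lower in PGCC, and with unscaled library totals 3820 genes were higher and 2521 lower. With LCL521 in both populations 48.9% of 13818 genes passed, and 25% passed as higher. The median log2 fold change over all genes tested was -0.03 without and -0.01 with LCL521. The members were chosen with these comparisons in view, so they are not counted against these shares and their fold changes stand as a description. The share of all genes whose PGCC and parental libraries did not overlap was not counted. Nothing is therefore read from the lack of overlap of a member.

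**Figure D3:**
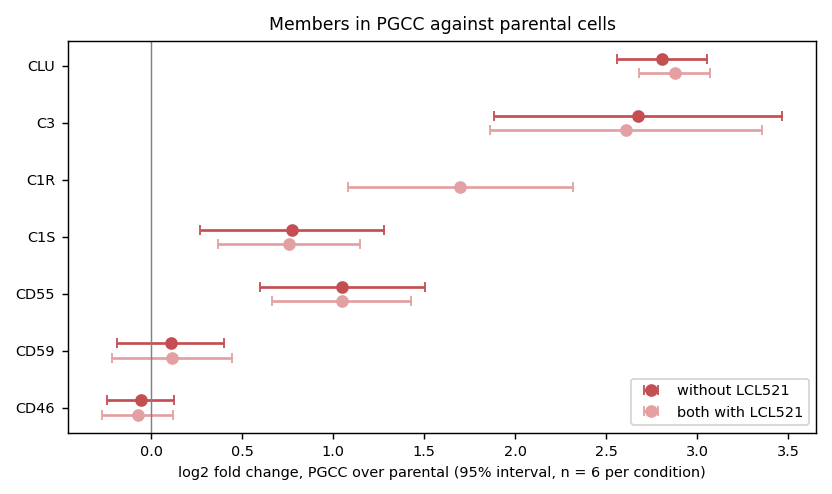
Log2 fold changes of PGCC over parental cells with 95% intervals, without LCL521 (dark) and with LCL521 in both populations (light), 6 libraries per condition. The points of CLU are at 2.81 and 2.88, and those of CD59 and CD46 have intervals over 0. C1R has a value with LCL521 alone because too few libraries reached the count minimum without it.

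Exposure to LCL521 for 5 h, the comparison that asks whether inhibition of ASAH1 moves these genes within a population, changed no member past the threshold. None of the 6 member rows tested in parental cells and none of the 7 tested in PGCC had an adjusted p under 0.05 by edgeR. Among all genes 0% of 13277 passed in parental cells, where 71 genes had an unadjusted p under 0.05, and 0.00707% of 14151 passed in PGCC, where 218 had. DESeq2 called 0 and 6 genes, no member among them. A difference of the LCL521 effect between the populations was tested as an interaction over the 24 libraries, and 0% of 14555 genes and 0 of the members passed, with 60 genes at an unadjusted p under 0.05 and 0 calls by DESeq2. The replicate block, which compares libraries of the same experiment, raised the calls among all genes to 115 in parental cells and 234 in PGCC and called no member.

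The intervals show how large an LCL521 effect each fit leaves room for. With the replicate block they were narrower for every gene named in this paragraph. The fold then lay within 0.764 to 1.07 for C3 in PGCC and 0.977 to 1.12 for CD55 in parental cells. The values that follow are of the fit without the block. CLU had a log2 change of -0.06 ± 0.13 in parental cells and -0.01 ± 0.06 in PGCC (SE, n = 6), with a 95% interval of the fold of 0.904 to 1.09 in PGCC. CD55 had 0.03 ± 0.27 and 0.01 ± 0.07, and CD59 -0.01 ± 0.19 and -0.03 ± 0.08. Folds in PGCC beyond 0.904 to 1.12 for CD55 and 0.868 to 1.11 for CD59 lay outside their intervals. The low genes were less well determined. C3 had -0.08 ± 0.45 in parental cells and -0.16 ± 0.27 in PGCC, and C1S 0.04 ± 0.23 and -0.004 ± 0.19, so that folds of C3 from 0.597 to 1.34 in PGCC lay within its interval.

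Of the 7 members tested in PGCC, C1R had the largest LCL521 difference. Its counts were 8 to 17 without and 15 to 24 with LCL521, or 0.721 ± 0.197 and 1.10 ± 0.220 CPM (SD, n = 6), and the ranges of CPM overlapped. C1R met the count minimum here through its libraries with LCL521, the condition where it was higher. Its p-values below therefore stand as a description. The log2 fold change was 0.60 ± 0.23, higher in 6 of 6 experiments, with an unadjusted p of 0.0181 and an adjusted p of 1.00 by edgeR over all genes and 0.266 with the replicate block. An exact permutation test on log2 CPM gave a two-sided p of 0.0130 (6 against 6 libraries) and, with the signs of the 6 differences changed, 0.0312, the smallest value that 6 pairs allow, both unadjusted among 13 such tests. In parental cells C1R was higher with LCL521 in 3 of 6 experiments, and the interaction was 0.45 ± 0.47 (SE) on the log2 scale. The differences in PGCC were 1.34 and 1.10 in experiments 2 and 5 and 0.09 to 0.34 in the other 4.

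CD46 was higher with LCL521 in 6 of 6 experiments in parental cells and in 5 of 6 in PGCC. In experiment 1 of parental cells the difference was only 0.0003 on the log2 scale. The log2 fold change was 0.14 ± 0.09 in parental cells and 0.10 ± 0.08 in PGCC (SE, n = 6). The adjusted p of edgeR was 1.00 in both without the replicate block and 0.182 and 0.209 with it. In parental cells the exact permutation test gave 0.165 over libraries and 0.0312 over the 6 differences, again the smallest value allowed. In PGCC it gave 0.212 over libraries and 0.156 over the 6 differences. The other 10 pairs of a member and a population had an exact permutation p between 0.671 and 0.942 over libraries.

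**Figure D4:**
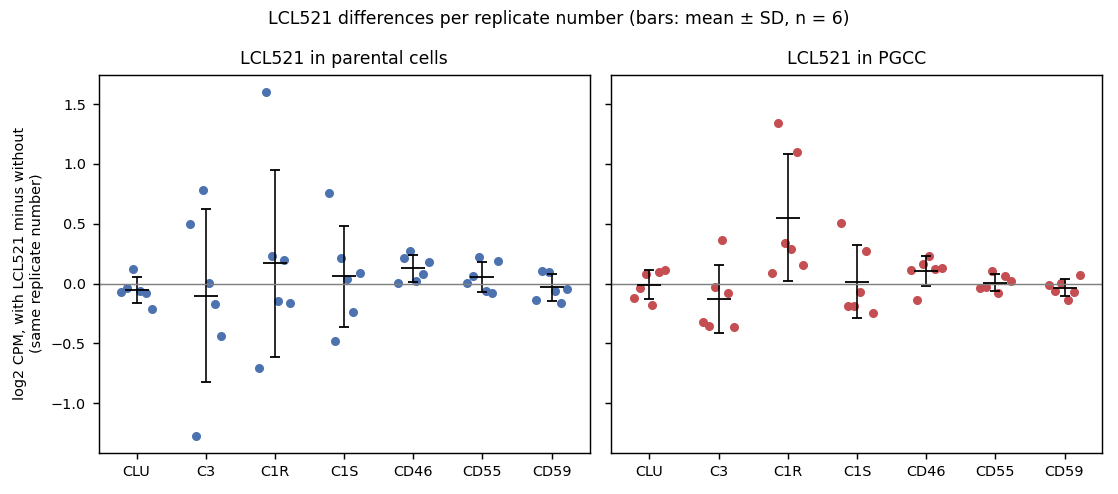
Differences in log2 CPM between libraries with and without LCL521 of the same experiment, in parental cells (left) and PGCC (right), for the 7 members with enough counts in at least 1 comparison. Points are experiments and bars are the mean and SD of 6. C1R in PGCC and CD46 in parental cells lie at or above 0 in all 6 experiments, and CLU, CD55 and CD59 stay near 0.

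The other genes of the complement system were taken as a list of 46, of which 45 were matched in the count table and 21 averaged under 3 counts in each of the 4 conditions. The list was drawn up with earlier results of these libraries known. Its calls and p-values between PGCC and parental cells, here and below, are therefore a description and no independent test. Between PGCC and parental cells 11 of its genes were tested and 10 passed an adjusted p under 0.05 by edgeR, 8 as higher and 2 as lower in PGCC, beside the 47.4%, 23.1% and 24.3% of all genes given above. COLEC10, C8G, C4BPB and C5AR1 fell short of the count minimum in parental cells and were tested through their level in PGCC, so nothing is read from these counts.

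Among the soluble regulators C4BPB, a chain of the C4b-binding protein, had 0 to 3 counts in parental cells and 12 to 35 in PGCC. Among the components, C5, from which the terminal pathway starts, rose from 52.2 ± 10.4 to 103 ± 11.97 CPM (SD, n = 6). Its log2 fold change was 0.99 ± 0.12 (SE, n = 6; adjusted p = 2.10e-05 by edgeR). C8G, a chain of the terminal component C8, had 4 to 11 counts per library in parental cells and 12 to 22 in PGCC. Of the recognition molecules and their proteases, COLEC10 had 5 to 25 counts in parental cells and 30 to 85 in PGCC. MASP2 had 6 to 36 and 28 to 55, with a log2 fold change of 1.06 ± 0.32 (SE, n = 6). With LCL521 in both populations MASP2 did not pass, with an adjusted p of 0.0799 by edgeR, and passed with the replicate block, with an adjusted p of 0.0298 by edgeR and a log2 fold change of 0.82.

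Of the surface proteins, the anaphylatoxin receptor C5AR1 had 2 to 17 counts per library in parental cells and 15 to 23 in PGCC, ITGB2, the beta chain of complement receptors 3 and 4, 7 to 26 and 23 to 40, and SUSD4, a membrane regulator with complement control repeats, 86 to 190 and 193 to 256. ITGB2 and SUSD4 were higher in PGCC past the threshold, with log2 fold changes of 1.03 ± 0.30 and 0.51 ± 0.19 (SE, n = 6). The 2 genes that fell were the alternative route protease CFD and C1QBP, a mitochondrial protein first described as a binding partner of C1q. CFD fell by 0.60 on the log2 scale, from 67.3 ± 5.79 to 44.2 ± 3.02 CPM, and C1QBP, the most counted gene of the list, fell by 0.66, from 671 ± 67.4 to 423 ± 30.8 CPM (SD, n = 6). C4A, whose reads may be shared with its near-identical copy C4B, had a log2 fold change of -0.32 ± 0.36 and did not pass. LCL521 changed 0 of 7 genes of the list tested in parental cells and 0 of 14 in PGCC, all with an adjusted p of 1.00 by edgeR.

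**Figure D5:**
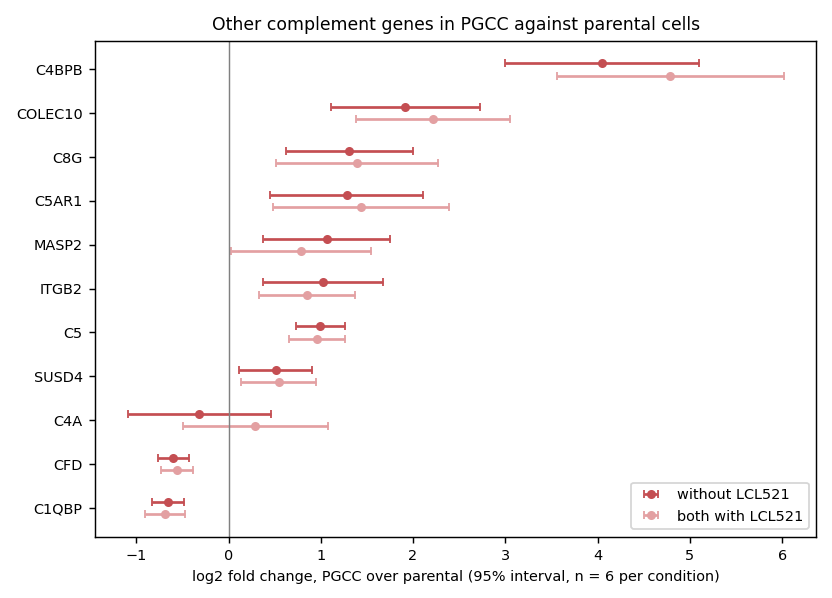
Log2 fold changes of PGCC over parental cells with 95% intervals for the 11 other complement genes tested, without LCL521 (dark) and with LCL521 in both populations (light), 6 libraries per condition. C4BPB lies farthest from 0, CFD and C1QBP lie below 0, and the interval of C4A lies over 0. The fitted values of C4BPB rest on 0 to 3 parental counts per library.

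Without LCL521 summed levels of leukocyte and hepatocyte markers did not overlap between parental cells and PGCC, while those of endothelial and fibroblast markers did. With LCL521 in both populations the leukocyte sums alone did not overlap. How often other sets of low genes fail to overlap was not tested. The 5 leukocyte and macrophage markers summed to 1.505 ± 0.942 CPM in parental cells and 4.29 ± 0.79 in PGCC (SD, n = 6), with 10 to 51 and 66 to 92 counts per library. Most of these counts were of PTPRC, with 6 to 47 and 42 to 70, while AIF1 had 0 or 1. The 4 hepatocyte markers summed to 0.373 ± 0.198 and 0.923 ± 0.251 CPM, with ALB at 1 to 8 and 3 to 14 counts. Their summed counts were close, at 2 to 11 and 12 to 22 per library. With LCL521 they were 2 to 14 in parental cells and 10 to 29 in PGCC. The 2 endothelial markers summed to 0.519 ± 0.644 and 0.690 ± 0.241 CPM, and the 3 fibroblast markers to 8.43 ± 2.96 and 7.56 ± 1.30 CPM. COL1A1 made up most of the fibroblast sum, with 95 to 190 and 87 to 152 counts, while LUM had 0 to 2 and 4 to 11 and DCN 0 or 1 and 0 to 3. As a further measure of low counts, chosen after the data were seen, 376 olfactory receptor genes summed to 4.97 ± 1.45 CPM in parental cells and 5.97 ± 0.953 in PGCC. Their part in the values of CFI, C1R, C3 and the low genes of the list was not tested.

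The genes whose profile over the 24 libraries was most like that of a member were sought for CLU, C3 and C1R, the 3 members with the widest span of condition means. Likeness was the root mean square difference between log2 CPM profiles, each centred on its own mean, over 10651 genes. For CLU the nearest were PARM1 at 0.188, SERPIND1, which encodes heparin cofactor II, at 0.247 and the collagen receptor gene MRC2 at 0.258. For C3 they were the guidance ligand gene SLIT2 at 0.421, PI3, which encodes the elastase inhibitor elafin, at 0.442 and CYR61, which encodes a matrix-associated signalling protein, at 0.454. For C1R they were MAFF at 0.374, PIM1 at 0.392 and HIST1H2AC at 0.397, the last a histone gene with near-identical copies. Between members the difference was 0.290 for CD46 and CD59, 0.425 for C1S and CD55, 0.444 for C1R and CD55 and 0.623 for CLU and C3. C1R and C1S, whose products form 1 complex, differed by 0.666. C1R had at most 9 counts in any parental library, so counting error enters its distances and its nearest genes.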

How the data were processed

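RNA was sequenced from PPC1 cells in 4 conditions with 6 libraries each. The authors deposited raw read counts per gene, with positions on hg19 and gene lengths; the submitters' processing notes name STAR and HTSeq. The annotation release and the strand setting are not given in the sources used here. The labels put harvest on day 5.

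Members and lists were chosen with earlier results of these data known. Counts were tested with edgeR 4.0.16 in R 4.3.3 (filterByExpr, count minimum 10, total minimum 15, TMM, quasi-likelihood test, Benjamini-Hochberg adjustment over all genes tested, threshold 0.05), without a block, on the 12 libraries of each comparison or on 24 for the interaction. SE is the log2 fold change divided by the square root of F. Log2 CPM carry a prior count of 2. The test was tried on simulated counts with known changes. Genes named were all members, every other complement gene past the threshold in a comparison and the most counted, C4A and the overlapping genes GPR108 and LPCAT3 (both kinds added after their values were seen), and the 3 genes nearest to CLU, C3 and C1R among genes averaging 2 or more on the log2 CPM scale. The replicate numbers were taken to mark experiments. Same-numbered libraries deviated together, with correlations above 0.1 in 6 of 6 pairs of every comparison, the lowest 0.171. The PGCC library of the same number correlated best with 5 of 6 parental libraries without LCL521 and with 3 of 6 with it. In both LCL521 comparisons the same-numbered library correlated best in 6 of 6. No 2 libraries of a condition were alike within sampling noise, with a chi-square per degree of freedom of at least 4.69. Some genes of the lists are not reported here. Limits from a count of 0 cover counting error alone. Alternatives were DESeq2 1.42.0, RLE factors, library totals, no filter, all 24 libraries, the replicate block, leaving out each replicate and the division into replicates 1, 2, 3 and 6 and replicates 4 and 5.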

Additional observations from a re-analysis of the deposited data

Results flagged for a closer look

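Among 28 groups of 6 libraries checked, in each of which chance marks about 1 in 20, the level of C1S in PGCC with LCL521 held a library far from the others. The library of experiment 3 had 3.87 CPM and the nearest of the others 6.60, a gap of 0.818 of the whole range of the 6.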

How the results depend on the processing

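The count of members past the threshold was 0 for LCL521 in both populations and for the interaction under every alternative that gave a value. Of the other complement genes 10 passed between PGCC and parental cells, 16 with no filter on low counts. Beside MASP2 with LCL521 in both populations, given above, the replicate block changed no call of a member or of another complement gene. It gave log2 fold changes of 2.82 for CLU, 2.70 for C3 and 1.14 for CD55.

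Changes of sign came in members whose log2 changes were close to 0 or had few counts. Between PGCC and parental cells CD46 gave 0.033 with library totals, 0.021 in replicates 1, 2, 3 and 6 and -0.12 to 0.0023 without each replicate, and CD59 gave -0.0030 in replicates 1, 2, 3 and 6. For LCL521 in parental cells CD59 gave 0.013 with library totals, 0.020 in replicates 1, 2, 3 and 6 and -0.048 to 0.012 without each replicate, C1S -0.091 in replicates 4 and 5 and -0.086 to 0.15, CD55 -0.072 in replicates 4 and 5, and C3 -0.28 to 0.16. For LCL521 in PGCC C1S gave 0.0038 with library totals, 0.013 with the replicate block, 0.099 in replicates 4 and 5 and -0.092 to 0.071, CLU 0.0034 in replicates 1, 2, 3 and 6 and -0.030 to 0.027, CD55 -0.0064 to 0.027, and C3 0.23 in replicates 4 and 5. The cause was not tested. Few counts limit C1R, CFB and CFI, whose parental libraries held at most 9.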
